A study of Mus musculus with 51 samples.

Results

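The Peg3 domain is an imprinted cluster on mouse chromosome 7 that holds the zinc finger genes Peg3 and Zim1 and the ubiquitin protease gene Usp29. Its members were chosen by position, as every peak of the 6 allelic count tables and every 1 kb window of the signal table between 6.6 and 7.0 Mb (GRCm38). This gave 38 of 150793 allelic peaks and 400 of 2462755 windows, and 16 of 51229 annotated autosomal genes lie there. Peg3 and Zim1 are zinc finger genes, while Aurkc, at the right edge, encodes a kinase.

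The study profiled H3K4me3, H3K27me3 and H3K36me3 by ultra low-input native ChIP-seq in the epiblast, which forms the embryo proper, and the extra-embryonic ectoderm (ExE), which contributes to the placenta, at embryonic day 6.5. Embryos were hybrids of C57BL6/Babr (B6) and CAST/EiJ (CAST), written with the mother first, so that B6/CAST and CAST/B6 are reciprocal wild-type crosses. In matDKO/CAST the mothers carried floxed Dnmt3a and Dnmt3b and a Zp3-cre transgene, which is active in the growing oocyte, and the fathers were CAST. These mothers were mostly B6 with some remaining 129 alleles, and their embryos inherited deleted maternal copies of both genes beside intact paternal ones. Each of the 18 groups of cross, tissue and mark had 2 libraries, and there were 15 inputs (9 of epiblast and 6 of ExE). A library came from a pool of 4 epiblasts or 8 ExE. The same pool was divided between the antibodies, so the pools are the replicates and the p-values rest on the spread between them. The allelic fits entered the maternal and paternal counts of a library as separate columns. Their pairing within a library was modelled only in the alternative with the library as a replicate block.

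In an imprinted gene the copies from the mother and the father are used unequally. At many such genes the oocyte methylates a CpG-rich promoter, the methylation is kept on the maternal copy in the embryo, and that copy is silent. Peg3 and Usp29 are known as paternally expressed genes that start back to back from a promoter methylated in the oocyte, and Zim1 is known as a maternally expressed neighbour. H3K4me3 marks active promoters, H3K36me3 the bodies of transcribed genes, and H3K27me3 is laid down by Polycomb at repressed genes.

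Peg3 (chromosome 7, 6703892 to 6730431, minus strand) and Usp29 (6730578 to 6967219, plus strand) start 147 bases apart, so that their promoters are 1 measurement in windows of 1 kb. Zim1 (6671269 to 6696450, minus strand) and Zim2 (6651748 to 6662368, minus strand) lie beyond the 3' end of Peg3. Zim3 (6955685 to 6977420, minus strand), annotated here as an antisense transcript, and the pseudogene Zfp264 (6977246 to 6991087, plus strand) overlap at their starts beyond the far end of Usp29, and are likewise 1 promoter measurement. The promoters of Peg3 and Zim1, the starts where the joint fit of both wild-type crosses called a parental bias in ExE, in opposite directions, are printed below from the RefSeq promoter table of GRCm38.p6, 5′ to 3′ on the minus strand, with each CG, the site of DNA methylation, in capitals. The last sequence is the stretch of the first part of Peg3 (chr7:6727758-6728057, minus strand) that is densest in the motif GCCATNTT, the core of the YY1 site, with the motif in capitals, read from the RefSeq genome of the same build.
Peg3 promoter (chr7:6730370-6730669): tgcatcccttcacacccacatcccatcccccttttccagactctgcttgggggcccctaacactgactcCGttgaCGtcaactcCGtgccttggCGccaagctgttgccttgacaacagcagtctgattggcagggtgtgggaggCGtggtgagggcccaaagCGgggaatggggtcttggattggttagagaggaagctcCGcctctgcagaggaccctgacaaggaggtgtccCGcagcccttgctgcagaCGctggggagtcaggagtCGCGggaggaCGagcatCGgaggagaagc
Zim1 promoter (chr7:6696383-6696682): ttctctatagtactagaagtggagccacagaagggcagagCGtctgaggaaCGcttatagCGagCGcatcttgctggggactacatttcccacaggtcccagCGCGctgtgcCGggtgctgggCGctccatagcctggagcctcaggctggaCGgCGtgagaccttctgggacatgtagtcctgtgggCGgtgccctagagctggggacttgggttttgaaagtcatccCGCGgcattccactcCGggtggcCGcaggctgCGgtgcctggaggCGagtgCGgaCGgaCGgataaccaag
Peg3 motif cluster: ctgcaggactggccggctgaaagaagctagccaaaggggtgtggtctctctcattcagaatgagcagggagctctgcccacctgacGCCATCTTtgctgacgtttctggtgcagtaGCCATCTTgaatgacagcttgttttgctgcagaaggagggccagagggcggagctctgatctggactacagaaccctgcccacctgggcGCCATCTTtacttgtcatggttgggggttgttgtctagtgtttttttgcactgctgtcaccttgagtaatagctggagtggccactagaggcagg

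The printed Peg3 promoter holds 13 CG and that of Zim1 holds 20, against 17 for Usp29, 9 for Zim2 and 6 for Aurkc. Among all 32851 promoters of the same length, 37.9% had at least as many CG as Peg3. None of these 5 promoters held GCCATNTT on either strand, a motif found in 6.05% of all promoters. It lay instead downstream of the Peg3 start, where the ExE H3K4me3 peak held 12 matches, all on the strand that Peg3 is read from and 842 to 3130 bases past its start. Of the 2517 ExE H3K4me3 peaks of chromosome 7, 1.23% had as many per kb. The printed window, placed on the densest stretch, holds 3 of them, and 682 of 7986009 consecutive autosomal windows of 300 bases held as many. Those windows were fixed in place and not moved to a dense stretch, so their count does not measure how rare such a cluster is. The same peak held 8 matches to TGCCGC, the core recognised by the imprint-protecting factor ZFP57, and 1.39% of the chromosome's peaks had as many per kb. These are matches of letters, read from the reference and not from the hybrid embryos.

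Total signal drew on 4.01 to 17.9 M reads for an H3K4me3 library, 3.68 to 22.9 M for H3K27me3, 2.09 to 12.6 M for H3K36me3 and 7.17 to 90.6 M for an input. Allele-assigned reads in peaks came to 1.12 to 6.82 M for H3K4me3, 0.271 to 6.58 M for H3K27me3 and 0.289 to 2.11 M for H3K36me3. Over a deleted stretch of Dnmt3b (chromosome 2, 153675001 to 153678000) the ExE inputs read 0.207 to 0.239 RPKM (reads scaled to window length and library depth) in matDKO/CAST and 0.346 to 0.556 in wild type. The groups did not overlap, but the stretch was located on the inputs in earlier work on these data. Their separation there is thus no separate test of the genotype. The epiblast inputs there did overlap (0.158 to 0.221 against 0.186 to 0.447), while H3K36me3 was below wild type in both tissues, at 0.713 to 0.798 against 1.27 to 2.15 RPKM in epiblast and 0.991 to 0.997 against 1.72 to 2.99 in ExE. Summed promoter H3K4me3 followed the tissue labels for the epiblast list, whose 9 found genes averaged 20.6 to 29.3 RPKM in epiblast and 9.28 to 15 in ExE. Taken singly, 6 of these genes were higher in epiblast and 3 overlapped between tissues. The list of 10 ExE genes was less distinct, at 16 to 25.3 RPKM in ExE and 13.6 to 19.4 in epiblast, and 6 of its genes overlapped between tissues. Of the others 3 were higher in ExE, and Esrrb was higher in epiblast, at 0.481 to 1.08 RPKM against 0 to 0.393. Visceral endoderm genes, of a layer that surrounds both tissues, averaged 6.79 to 11.3 RPKM in ExE and 5.18 to 8.86 in epiblast. Of these 10 genes 4 were higher in ExE, 1 was higher in epiblast and 5 overlapped. The input averaged 0.484 to 0.541 RPKM over the domain in epiblast and 0.518 to 0.549 in ExE, so it differed little between crosses.

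**Figure D1:**
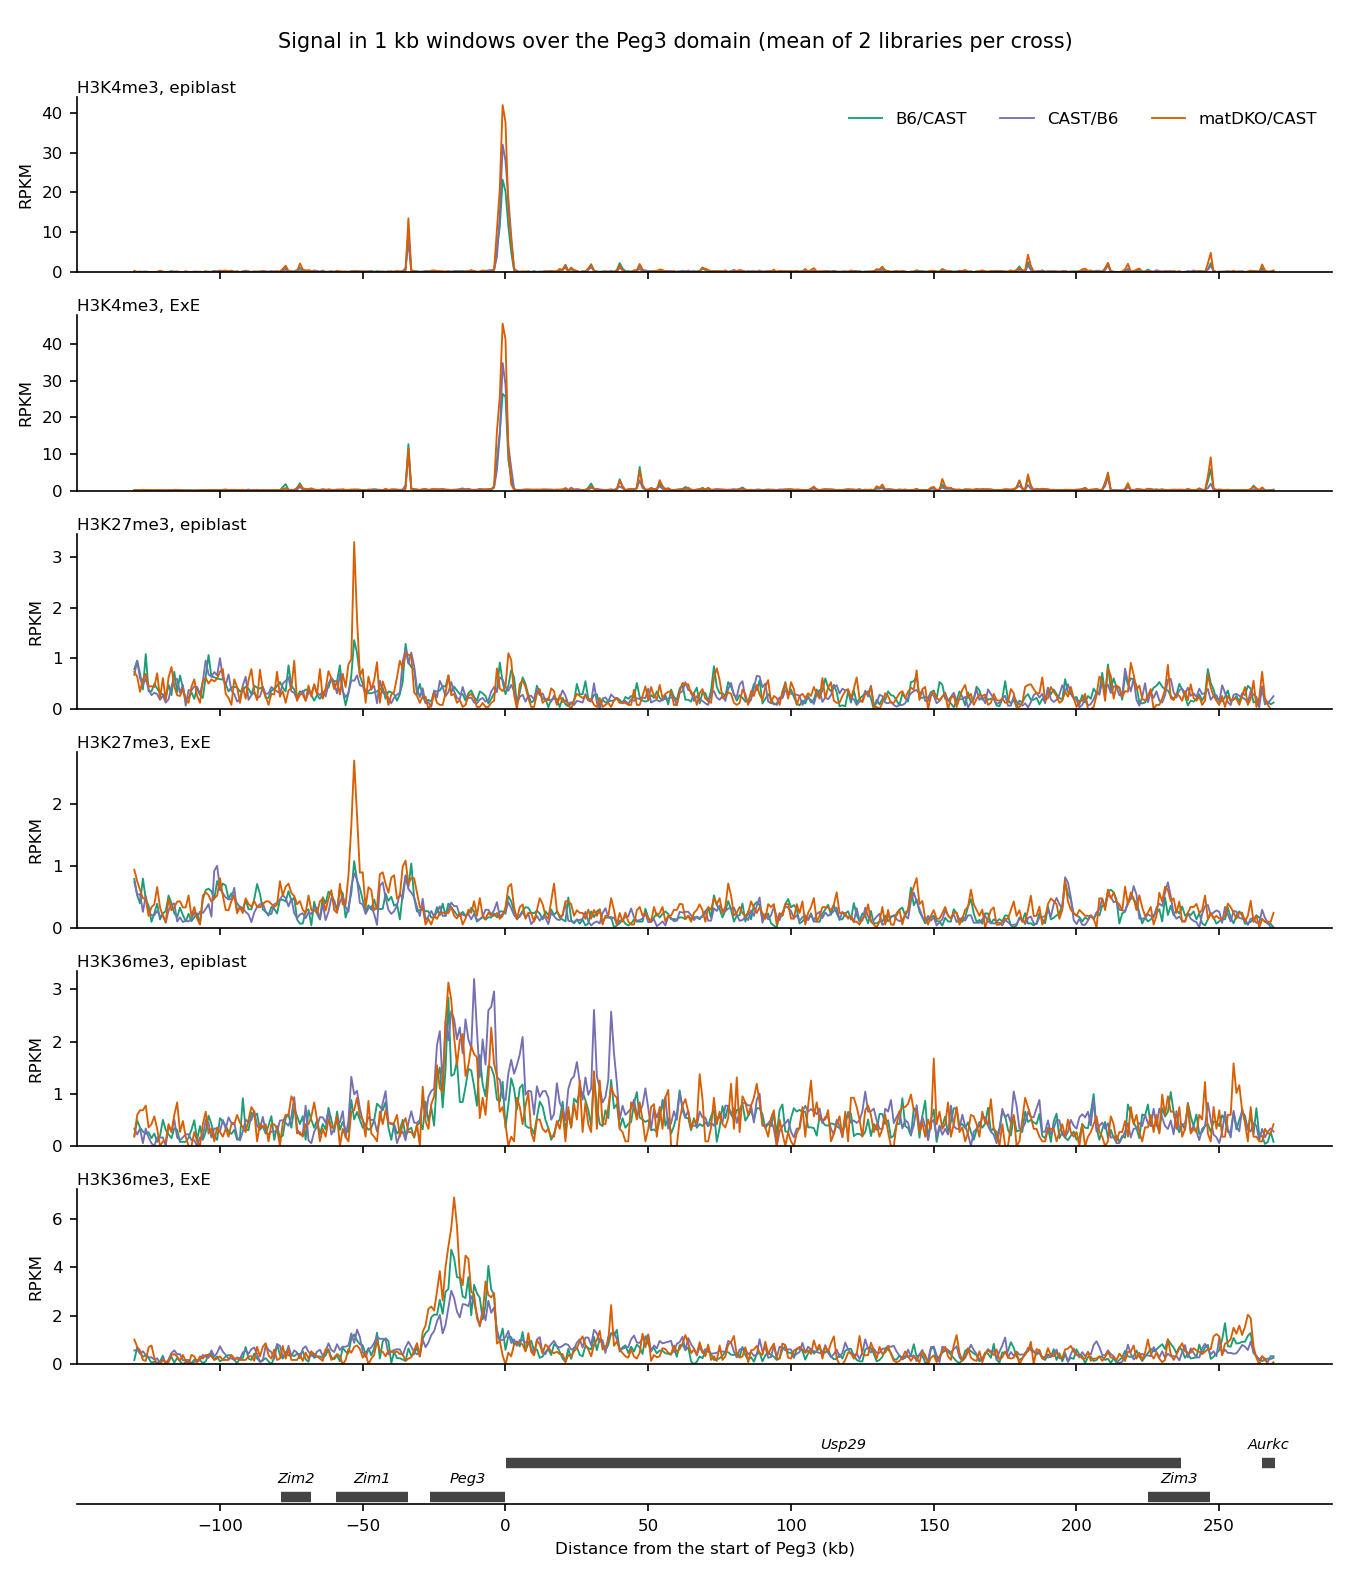
Mean RPKM of the 2 libraries of each cross in 1 kb windows (vertical axis, own scale per panel) against the distance from the start of Peg3 in kb, with the main genes drawn to scale below. H3K4me3 peaks at the shared start of Peg3 and Usp29 and at Zim1, H3K36me3 covers the body of Peg3, and in matDKO/CAST an H3K27me3 peak stands inside Zim1.

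The start shared by Peg3 and Usp29 held the highest H3K4me3 of the domain, and in wild type its allelic reads came almost wholly from the paternal allele. Peg3 encodes a zinc finger protein with roles in growth and maternal behaviour, and Usp29 a ubiquitin-specific protease. In epiblast (peak 6726500 to 6734000) the 2 B6/CAST libraries held 427 and 323 paternal reads against 3 and 7 maternal reads, and the 2 CAST/B6 libraries held 500 and 100 against 1 and 2. The maternal share was thus 0.698 and 2.12% in B6/CAST and 0.200 and 1.96% in CAST/B6. In ExE (peak 6726000 to 6733500) B6/CAST held 537 and 403 paternal against 41 and 15 maternal reads, and CAST/B6 held 447 and 432 against 6 and 1. All 8 wild-type libraries were far to the paternal side, whichever strain was the father. In matDKO/CAST the alleles were nearly equal, with 330 and 75 paternal against 340 and 58 maternal reads in epiblast and 326 and 208 against 307 and 188 in ExE. The maternal share rose to 50.7 and 43.6% in epiblast and 48.5 and 47.5% in ExE, and in neither tissue did these values overlap those of wild type.

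**Figure D2:**
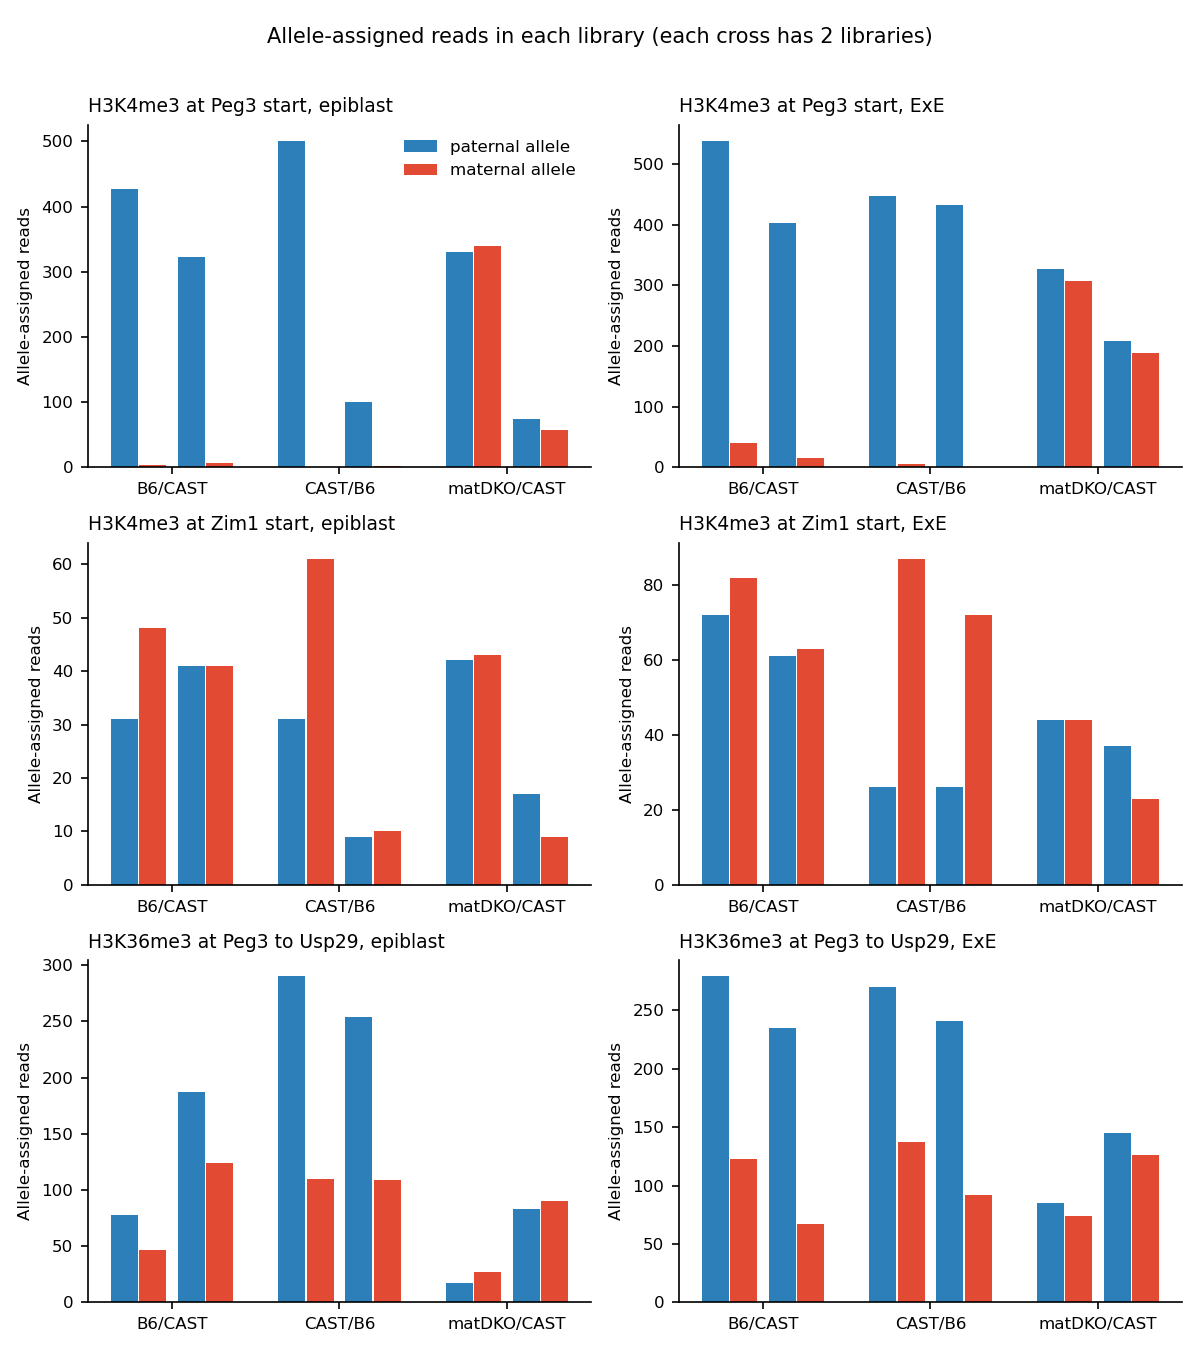
Reads assigned to the paternal (blue) and maternal (red) allele in each library, as pairs of bars with 2 libraries per cross, for 3 regions and both tissues. At the start of Peg3 the maternal bars are almost absent in wild type, at most 41 reads, and reach the height of the paternal bars in matDKO/CAST.

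A joint fit of both wild-type crosses with edgeR's quasi-likelihood test, adjusted over all informative peaks (at least 20 reads in 1 wild-type allele column), gave a log2 ratio of paternal to maternal reads of 6.82 ± 0.28 (SE) in epiblast (adjusted p = 1.22e-14) and 5.49 ± 0.14 in ExE (adjusted p = 2.63e-35). Of the domain's 14 H3K4me3 peaks in each tissue, 5 in epiblast and 9 in ExE were informative, and the parent term was called in 1 and 2 of them, where 0.197% and 0.711% of all informative peaks were called. Measured against B6/CAST, the cross with the same strains on each side, the log2 ratio of matDKO/CAST was lower by 6.02 ± 0.41 in epiblast (edgeR adjusted p = 1.26e-09) and by 3.91 ± 0.24 in ExE (edgeR adjusted p = 1.53e-08), where the shares of all peaks called were 0.674% and 0.892%. The maternal allele rose in both tissues, while the change of the paternal allele did not pass the test. In epiblast the maternal allele changed by a log2 of 6.10 ± 0.34 (edgeR adjusted p = 8.05e-12) and the paternal allele by 0.07 ± 0.20 (edgeR adjusted p = 0.956). In ExE the maternal allele changed by 3.90 ± 0.20 (edgeR adjusted p = 8.32e-11) and the paternal allele by -0.01 ± 0.13 (edgeR adjusted p = 0.985). No parental bias was called in matDKO/CAST at any of the 20 informative peaks of the domain for all 3 marks, where 7.17% of epiblast and 2.76% of ExE H3K4me3 peaks were called, and at an unadjusted p the start of Peg3 gave 0.273 and 0.180 in these tissues. With the library as a replicate block 2 peaks were called, the start of Zim3 and Zfp264 in epiblast (log2 0.97, edgeR adjusted p = 0.031) and in ExE (1.06, edgeR adjusted p = 1.37e-05), and the latter was also called without the filter.

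The maternal reads at the start of Peg3 were not equally rare in all wild-type libraries. In ExE they made up 7.09% (95% Wilson interval 5.27 to 9.48) and 3.59% (2.19 to 5.84) of allelic reads in B6/CAST, and 1.32% (0.608 to 2.86) and 0.231% (0.0408 to 1.30) in CAST/B6. These intervals cover counting error only. Both B6/CAST libraries were above both CAST/B6 libraries, and the strain term of the joint fit was -1.37 ± 0.25 (log2 of CAST over B6, edgeR adjusted p = 2.55e-05), where 19% of informative peaks were called. It was -2.26 without CAST/B6 ExE replicate 1 and at its smallest -1.02 without CAST/B6 ExE replicate 2, called in each case. Markers of maternal decidua and blood averaged 2.81 to 2.94 RPKM in the ExE H3K4me3 libraries of B6/CAST and 2.32 to 3.08 in those of CAST/B6, so their ranges overlapped, and visceral endoderm markers 8.93 to 11.3 and 6.79 to 10.9. In epiblast the 7 decidua and blood markers averaged 3.86 to 5.74 RPKM. The average was carried by Pgr, Vim and Col1a1, which averaged more in epiblast, while Dcn, Prl8a2, Ptprc and Cd68 read at most 1.19 RPKM in any library, and all of these but Dcn averaged more in ExE. The part of other cells in these maternal reads was not tested further. The fitted difference of the log2 ratio between tissues (ExE minus epiblast) was -1.33 ± 0.59, with an unadjusted p of 0.034, and was not called (edgeR adjusted p = 1.00). It ran from -1.98 without CAST/B6 epiblast replicate 3 to -0.42 without CAST/B6 epiblast replicate 2.

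**Figure D3:**
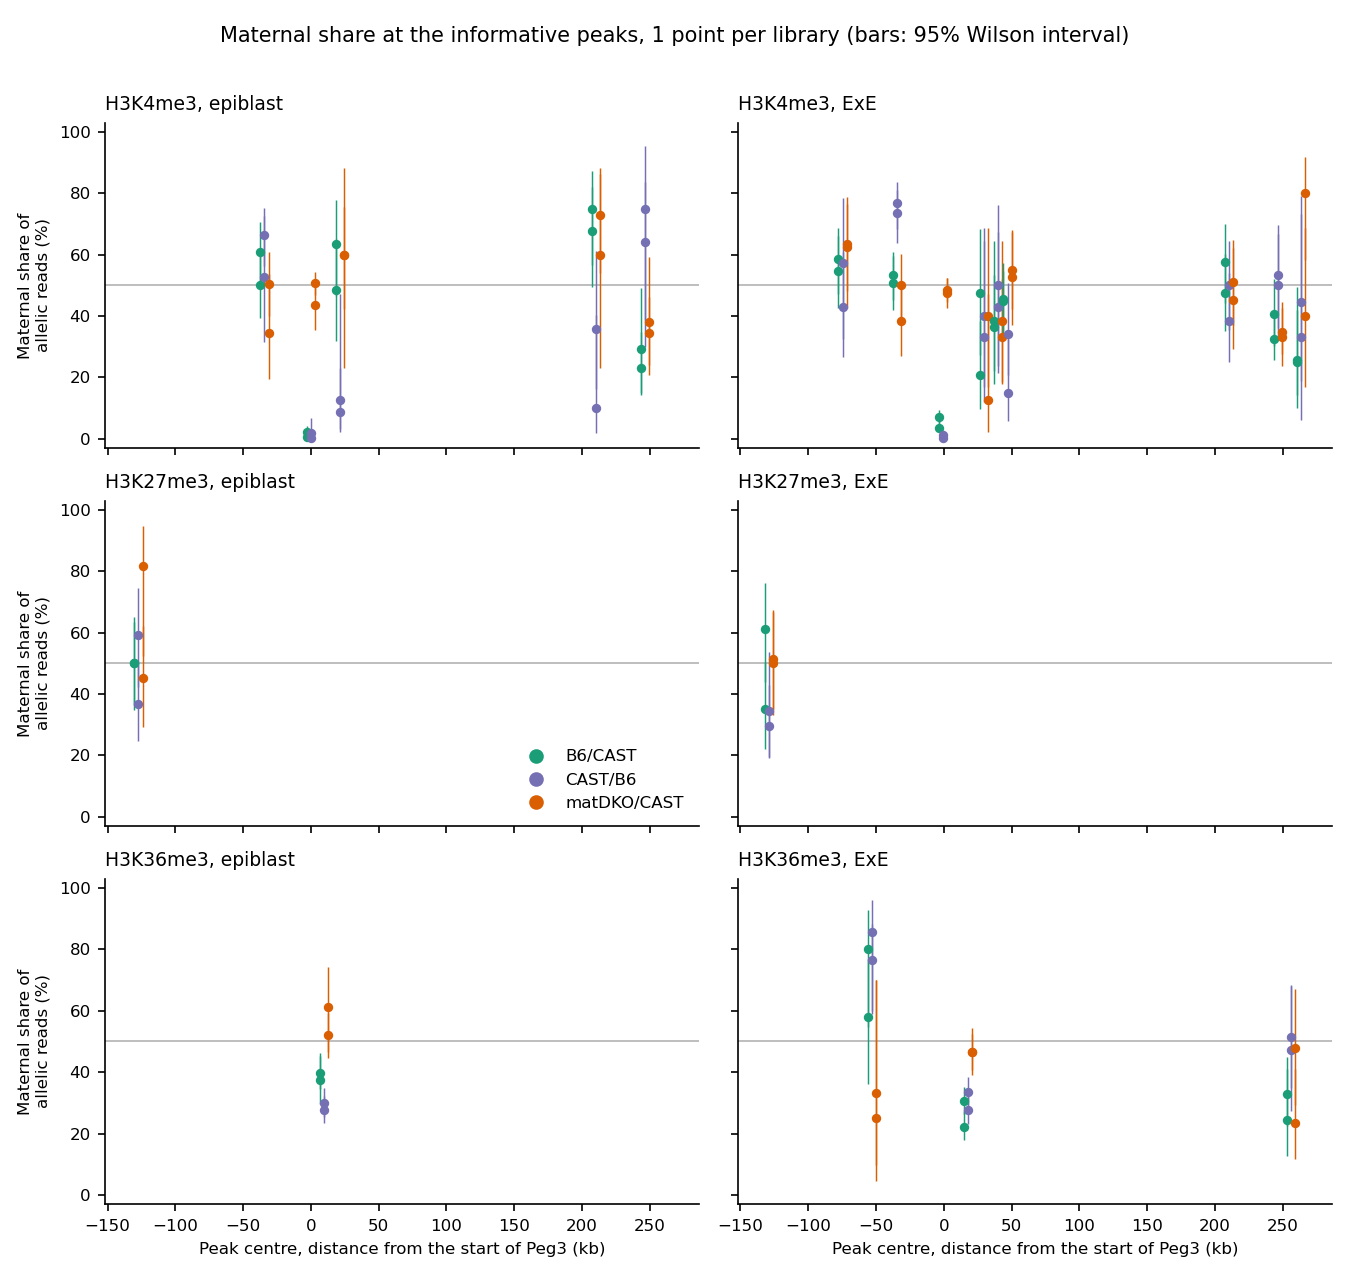
Maternal share of allelic reads (per cent) at each informative peak against the distance of its centre from the start of Peg3 in kb, 1 point per library with its 95% Wilson interval. Points of the 3 crosses are set 3 kb apart for legibility. The start of Peg3 lies between 0.200 and 7.09% in wild type and between 43.6 and 50.7% in matDKO/CAST.

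Total H3K4me3 at the shared start, counted without regard to the allele, averaged more in matDKO/CAST, but the difference did not pass the test. In pooled tissue, more cells with the mark and more of the mark in each cell cannot be told apart. Over the window of 1 kb either side of the Peg3 start it was 20.7 and 15.9 RPKM in the B6/CAST epiblast, 33 and 19.3 in CAST/B6 and 39.6 and 24.0 in matDKO/CAST, which overlap. In ExE it was 22.1 and 18.1 in B6/CAST, 22.6 and 28.1 in CAST/B6 and 30.8 and 34.3 in matDKO/CAST, which do not overlap. The log2 difference from wild type, on log2(RPKM + 0.5), was 0.52 ± 0.27 in both tissues (limma unadjusted p = 0.092 and 0.089, adjusted p = 0.863 and 1.00). Of all genes 0.0215% were called in epiblast and 0.0332% in ExE. Between wild-type tissues the start differed by 0.07 (log2 of ExE over epiblast), where 5.61% of genes were called. On the Peg3 side of the start, 2 windows (6727001 to 6729000) picked after the profile was seen separated matDKO/CAST from wild type in both tissues. There the epiblast read 8.36, 9, 9.34 and 8.63 RPKM in the 4 wild-type libraries and 17.4 and 14.2 in matDKO/CAST, and ExE 12.6, 11.7, 8.60 and 12.2 against 21.2 and 20.5. These windows hold 10 of the 12 GCCATNTT matches, the printed cluster among them. In ExE the next 2 windows toward the start also stood apart, with means of 30.6 RPKM in wild type and 45.5 in matDKO/CAST at 6729001 to 6730000 and 27.2 and 41.2 at 6730001 to 6731000. On the other side, inside Usp29 (6732001 to 6733000), the order was the opposite in ExE, with 1.66 to 1.82 RPKM in matDKO/CAST against 3.24 to 6.90. Among windows with a mean of at least 1 RPKM in wild type and in matDKO/CAST each, both matDKO/CAST libraries exceeded all 4 wild-type ones in 6 of 14 windows of the domain in epiblast and 8 of 20 in ExE. Across the autosomes that held for 11.2% and 4.07% of such windows. Both were below all wild-type libraries in 0 and 1 of these windows, where the autosomes gave 1.28% and 2.45%.

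H3K36me3 over the transcribed Peg3 and Usp29 was biased the same way but less, in a single long peak over all of Peg3 and the first part of Usp29. In ExE (6701000 to 6796000) B6/CAST held 279 and 235 paternal against 123 and 67 maternal reads, CAST/B6 270 and 241 against 137 and 92, and matDKO/CAST 85 and 145 against 74 and 126. The maternal share was 22.2 to 33.7% over the wild-type libraries and 46.5% in both of matDKO/CAST. In epiblast (6701500 to 6779000) the reads were 78 and 187 against 47 and 124 in B6/CAST, 290 and 254 against 110 and 109 in CAST/B6, and 17 and 83 against 27 and 90 in matDKO/CAST. The maternal share there was 27.5 to 39.9% in wild type and 61.4 and 52.0% in matDKO/CAST, the first of these on 44 reads (95% Wilson interval 46.6 to 74.3). All wild-type libraries were paternal by number, and of matDKO/CAST both ExE libraries were so and neither epiblast one.

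The joint log2 ratio of paternal to maternal H3K36me3 was 1.30 ± 0.09 in ExE (edgeR adjusted p = 1.23e-38) and 0.97 ± 0.10 in epiblast (edgeR adjusted p = 7.26e-16), with 0.589% and 0.153% of informative peaks called in these tables. Against B6/CAST the ratio fell by 1.17 on the log2 scale in ExE (SE 0.22, edgeR adjusted p = 0.0018, 0.363% called), with a change of 1.16 ± 0.17 in the maternal allele and -0.01 ± 0.14 in the paternal one. That call rested on 1 library, since without B6/CAST ExE replicate 2 the change was -0.91 with an adjusted p of 0.722, and DESeq2 gave an adjusted p of 0.0502. In epiblast the change of -0.82 ± 0.28 was not called (edgeR adjusted p = 0.594).

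Total H3K36me3 over the body of Peg3 was higher in ExE than in epiblast of wild type. It was 2.77, 2.45, 1.71 and 2.18 RPKM in the 4 ExE libraries and 1.34, 1.02, 1.97 and 1.83 in the epiblast ones, and the ranges overlap, with the CAST/B6 libraries of the tissues closest. The log2 difference was 0.46 ± 0.12 (limma adjusted p = 0.042, where 13.2% of genes were called) and that of Zim1 was 0.27 ± 0.07 (adjusted p = 0.048). Zim1 read 0.601 to 0.840 RPKM in ExE and 0.411 to 0.557 in epiblast of wild type. The inputs over Zim1 were near these values, at 0.535 to 0.711 RPKM in ExE and 0.479 to 0.569 in epiblast. The remaining call, Mir3099, a microRNA inside Usp29, was lower in ExE (-0.34, adjusted p = 0.033). It read 0.668 and 0.715 RPKM in epiblast and 0.230 and 0.143 in ExE of B6/CAST, but 0.323 and 0.453 and then 0.515 and 0.404 in CAST/B6, where the tissues overlap, and the 15 inputs there read 0.396 to 1.05. The calls of Peg3 and Zim1 were near the threshold and were lost with the replicate number as a block (adjusted p = 0.058 and 0.090) and with most single libraries left out (adjusted p up to 0.143 and 0.153). That of Mir3099 was lost with the block (adjusted p = 0.069), in edgeR on recovered reads (adjusted p = 0.393) and with any 1 wild-type library left out (adjusted p up to 0.115). The signal over the body of Usp29 was 0.466 to 0.628 RPKM in wild type, and the inputs there read 0.510 to 0.564 over all crosses. It was lower further along the gene, from 0.603 to 1.06 RPKM at 10 to 50 kb in wild type to 0.379 to 0.492 at 100 to 230 kb.

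In matDKO/CAST H3K36me3 stood apart from wild type in opposite directions over parts of the pair of genes. Over 3 kb from the shared start into Usp29 (6730001 to 6733000), a stretch picked on the profile that also holds the first bases of Peg3, it was 0.160 and 0.238 RPKM in epiblast against 0.668 to 1.32 in wild type, and 0.297 and 0.249 in ExE against 0.920 to 1.13. These matDKO/CAST values rest on 1, 4, 3 and 4 reads, and those of wild type on 9 to 36. Over the inner body of Peg3 (6706001 to 6724000) ExE read 3.72 and 3.74 RPKM against 1.95 to 3.14, while epiblast read 1.30 and 2.04 within the wild-type range of 0.993 to 2.15. Over the whole annotated body of Peg3 the ExE difference was 0.36 ± 0.14 on the log2 scale (limma adjusted p = 0.543) and that of Usp29 -0.04 ± 0.06 (adjusted p = 0.899), and neither was called. No gene was called for this mark in ExE (0%) and 0.0293% were in epiblast. Among windows with a mean of at least 1 RPKM in both groups, both matDKO/CAST libraries were above all wild-type ones in 10 of 29 in ExE, 9 of them in the inner body of Peg3, and below in 0, where the autosomes gave 5.04% and 6%. In epiblast they were above in 0 of 21 and below in 1, where the autosomes gave 6.72% and 4.57%.

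**Figure D4:**
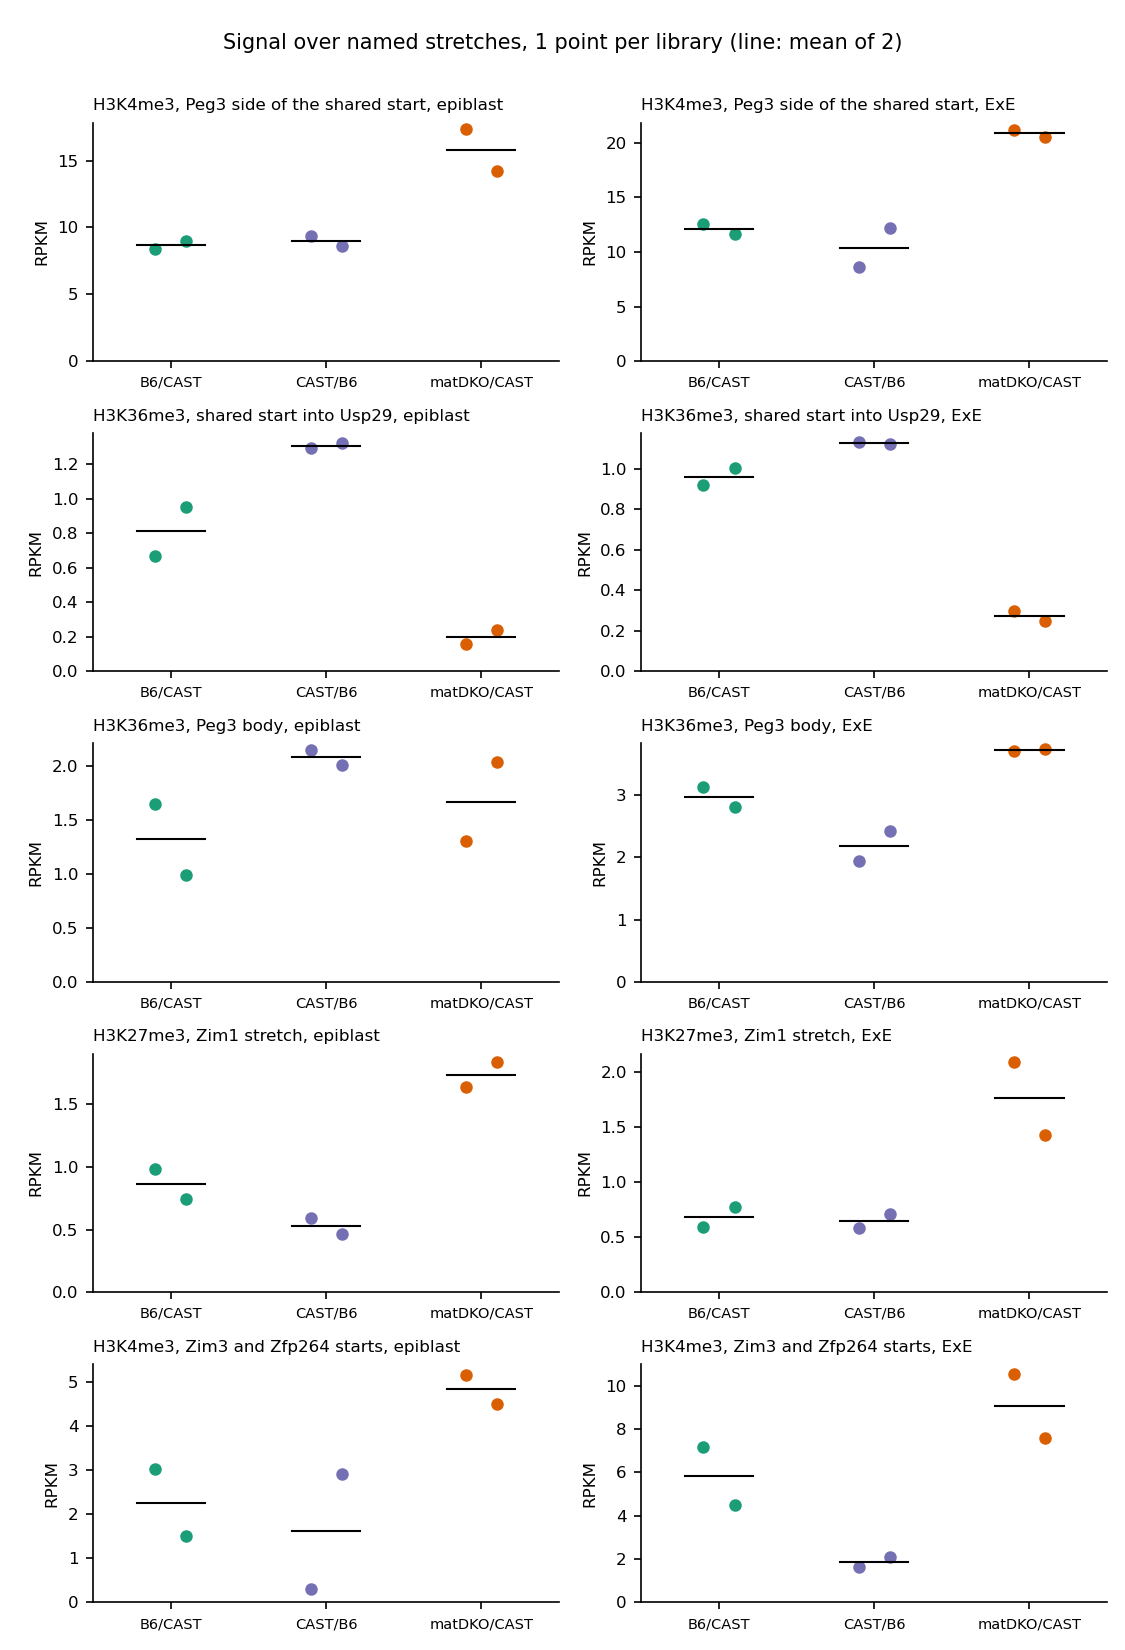
RPKM in each library (points) and the mean of 2 (line) over 5 stretches picked on the profile, with epiblast on the left and ExE on the right. Both matDKO/CAST libraries lie outside the 4 wild-type ones in every panel except H3K36me3 over the Peg3 body in epiblast.

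Zim1, a zinc finger gene, was biased to the maternal allele in ExE in the joint fit, and among the single crosses in CAST/B6 alone. At its start (6695000 to 6697500) the ExE H3K4me3 libraries held 72 and 61 paternal against 82 and 63 maternal reads in B6/CAST, 26 and 26 against 87 and 72 in CAST/B6, and 44 and 37 against 44 and 23 in matDKO/CAST. The maternal share was 53.2 and 50.8%, 77 and 73.5%, and 50 and 38.3% in these crosses. The log2 ratio in CAST/B6 was -1.65 ± 0.23 (edgeR adjusted p = 1.86e-05) and in B6/CAST -0.07 ± 0.19 (edgeR adjusted p = 0.863). The joint parent term was -0.88 ± 0.15 (edgeR adjusted p = 1.64e-04) and was lost without CAST/B6 ExE replicate 1 (-0.77, adjusted p = 0.095), and the strain term was 0.80 ± 0.15 toward CAST (edgeR adjusted p = 8.22e-05). In epiblast the reads were 31 and 41 against 48 and 41 in B6/CAST, 31 and 9 against 61 and 10 in CAST/B6, and 42 and 17 against 43 and 9 in matDKO/CAST. The joint term there was -0.50 ± 0.26 and was not called (edgeR adjusted p = 1.00). The change of the ratio in matDKO/CAST was 0.48 ± 0.34 in ExE and 0.64 ± 0.50 in epiblast, with edgeR adjusted p = 1.00 in both.

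Inside Zim1, ExE had a small H3K36me3 peak (6676000 to 6679500) with more maternal reads in wild type. B6/CAST held 3 and 8 paternal against 12 and 11 maternal reads, CAST/B6 7 and 2 against 23 and 12, and matDKO/CAST 4 and 3 against 2 and 1. All 4 wild-type libraries were maternal by number and both matDKO/CAST ones paternal, on 6 and 4 reads. The joint log2 ratio of -1.49 ± 0.40 was called (edgeR adjusted p = 0.037) but was lost in DESeq2 and with any 1 library left out, and the change of 2.28 ± 1.12 was not called (edgeR adjusted p = 1.00). Over the body of Zim1 total H3K36me3 in ExE was 0.619, 0.601, 0.840 and 0.736 RPKM in wild type and 0.480 and 0.396 in matDKO/CAST. These do not overlap, but the ExE inputs there read 0.535 to 0.711 RPKM, so the signal was near that of the input. The log2 difference of matDKO/CAST from wild type was -0.35 ± 0.09 (limma unadjusted p = 0.0041, adjusted p = 0.380).

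At the same place H3K27me3 read more in matDKO/CAST, though no test of it passed. Over 4 windows of Zim1 (6675001 to 6679000), picked on the profile, epiblast read 0.981, 0.742, 0.590 and 0.468 RPKM in wild type and 1.64 and 1.84 in matDKO/CAST. ExE read 0.590, 0.775, 0.579 and 0.713 against 2.09 and 1.43. Both matDKO/CAST libraries were above all wild-type ones in each tissue, and the input there was 0.384 to 0.757 RPKM over all 15 inputs. Of all autosomal windows with at least 1 RPKM in both groups, 5.52% in epiblast and 6.11% in ExE were above wild type in this way, and the domain had 0 such windows of 1 in epiblast and no window at that level in ExE. Over the whole body of Zim1, a test added after the profile was seen, the log2 difference was 0.34 ± 0.07 in epiblast (limma unadjusted p = 0.0010, adjusted p = 0.146) and 0.46 ± 0.07 in ExE (unadjusted p = 1.4e-04, adjusted p = 0.211). Neither was called, and 0.0644% and 0.00195% of genes were. At the Zim1 promoter H3K27me3 was 0.843 to 1.18 RPKM in the epiblast of wild type and 0.958 to 1.18 in matDKO/CAST, which overlap, and in ExE 0.509 to 0.895 against 0.827 to 0.905. No allelic H3K27me3 peak covers this stretch, so its parental origin was not measured.

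At the other informative peaks of the domain the joint parent term was not called. At the start shared by Zim3 and Zfp264 (6976000 to 6978500) ExE held 101 and 44 paternal against 49 and 30 maternal reads in B6/CAST, 15 and 14 against 15 and 16 in CAST/B6, and 98 and 50 against 52 and 25 in matDKO/CAST. The excess of the CAST allele in B6/CAST was called (log2 0.91 ± 0.23, edgeR adjusted p = 0.0077) but was lost without B6/CAST ExE replicate 1 (0.60, adjusted p = 0.573) and in DESeq2, and that of matDKO/CAST was alike in size (1.05 ± 0.27, edgeR adjusted p = 0.062). In the window at these starts total H3K4me3 in ExE was 7.17 and 4.49 RPKM in B6/CAST, 1.63 and 2.10 in CAST/B6 and 10.6 and 7.60 in matDKO/CAST. The crosses with a CAST father were above the reciprocal one, and the promoter difference of 1.18 ± 0.40 on the log2 scale from the mean of wild type was not called (limma unadjusted p = 0.018, adjusted p = 1.00). It was called by limma among genes with a mean of at least 0.5 RPKM and by edgeR on reads recovered from the RPKM (1.46, adjusted p = 1.15e-05), and against B6/CAST alone it was 0.54 ± 0.46. In epiblast, where the promoter difference was 1.07 ± 0.40 (limma adjusted p = 0.789), the same 2 alternatives called it as well. In the ExE allele counts the paternal allele rose against B6/CAST by a log2 of 0.86 ± 0.24 (edgeR adjusted p = 0.029), where 7.87% of peaks were called. It ran from 0.61 to 1.26 with 1 library left out. The maternal allele changed by 0.71 ± 0.29 and was not called (edgeR adjusted p = 0.185).

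A peak deep inside Usp29 (6947500 to 6949000) followed the strain in ExE, with 4 and 1 paternal against 15 and 11 maternal reads in B6/CAST, 10 and 9 against 2 and 0 in CAST/B6, and 4 and 4 against 15 and 7 in matDKO/CAST. The B6 allele had more reads in all 6 libraries, and the peak was below the limit for a test. In epiblast a peak at 6750000 to 6754000 held 31 and 7 paternal against 3 and 1 maternal reads in CAST/B6 (log2 3.10 ± 0.70, edgeR adjusted p = 0.020) and 16 and 12 against 15 and 21 in B6/CAST. That call was lost with either CAST/B6 library left out and in DESeq2. In ExE a peak inside Usp29 (6776000 to 6779000) held 23 and 23 paternal against 12 and 4 maternal reads in CAST/B6 (log2 1.47 ± 0.43, edgeR adjusted p = 0.040), 53 and 37 against 43 and 31 in B6/CAST, and 26 and 17 against 32 and 19 in matDKO/CAST. The CAST/B6 call was lost in DESeq2, with the replicate block and without CAST/B6 ExE replicate 2 (0.90, adjusted p = 0.471).

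At the right edge 2 further peaks were called in B6/CAST alone, both toward the paternal CAST allele. The ExE H3K4me3 peak at Aurkc (6991500 to 6996500) held 26 and 12 paternal against 9 and 4 maternal reads there (log2 1.57 ± 0.49, edgeR adjusted p = 0.032), 5 and 2 against 4 and 1 in CAST/B6, and 4 and 6 against 16 and 4 in matDKO/CAST. The H3K36me3 peak over Zfp264 (6980000 to 6993000) held 43 and 25 against 21 and 8 in B6/CAST (log2 1.30 ± 0.32, edgeR adjusted p = 0.0026), 15 and 10 against 16 and 9 in CAST/B6, and 12 and 23 against 11 and 7 in matDKO/CAST. Both calls were lost in DESeq2 and with either B6/CAST library left out.

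At another peak in Usp29 (6909000 to 6915000) matDKO/CAST had 0 allelic reads although its total signal was 1.96 and 1.31 RPKM in ExE, where wild type had 6 to 19 allelic reads at 0.729 to 1.69 RPKM. In epiblast it likewise had 0, at 1.44 and 1.37 RPKM, against 0 to 11 in wild type at 0.486 to 0.988. The total signal was thus present. The variants used for matDKO/CAST exclude those shared by 129 and CAST, and their number at this peak was not tested. The starts of Zim2 and Aurkc carried little H3K4me3. Zim2 read 0.0561 to 0.396 RPKM in wild-type ExE and 0.396 and 0.506 in matDKO/CAST. In epiblast it read 0.0910 to 0.224 against 0.194 and 0.416. Aurkc read 0.0281 to 0.383 RPKM in wild-type ExE and 0.316 and 0.329 in matDKO/CAST, which overlap, and 0.127 to 0.392 against 0.665 and 0.915 in epiblast, which do not. The epiblast difference of 0.74 ± 0.15 on the log2 scale was not called (limma unadjusted p = 0.0012, adjusted p = 0.641).

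Over all 20 informative peaks and 3 marks, B6/CAST alone gave 7 calls of parental bias, CAST/B6 alone 9 and the joint fit 6, and the change in matDKO/CAST was called at 3. The 6 joint calls were the Peg3 start and the Peg3 to Usp29 H3K36me3 peak in both tissues, and the start and body of Zim1 in ExE. The 3 changes were those of the Peg3 start in both tissues and of the Peg3 to Usp29 H3K36me3 peak in ExE. Among the 9 peaks paired between tissues no difference of the bias was called, where 0.0396% of H3K4me3, 0.251% of H3K27me3 and 0.0623% of H3K36me3 pairs were, and 2 had an unadjusted p under 0.05 in the edgeR fit.

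For H3K4me3 the single crosses gave 1 call of 5 in B6/CAST and 2 in CAST/B6 in epiblast, where 1.67% and 1.56% of all informative peaks were called. In ExE they gave 3 calls of 9 in each cross, where 13.6% and 5.95% were. The strain term was called at 1 epiblast and 2 ExE peaks (6.09% and 19% of all peaks), and the change of the bias at 1 in each tissue (0.674% and 0.892%). The maternal allele changed at 1 peak in each tissue (6.88% and 7.65%), the Peg3 start. The paternal allele changed at 0 epiblast peaks and at 1 ExE peak (7.02% and 7.87%), the start of Zim3 and Zfp264.

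For H3K36me3 the long Peg3 to Usp29 peak, the only informative one in epiblast, was called in both crosses, where 0.614% and 3.14% of all peaks were (the B6/CAST call was lost without B6/CAST epiblast replicate 2, adjusted p = 0.247), and 2 of 3 ExE peaks were called in each cross (5.69% and 2.23%). In matDKO/CAST 0 were called (0.451% in epiblast and 0.677% in ExE). The strain term was called at 0 peaks (4.45% and 8.22%), and the change of the bias at 0 in epiblast and 1 in ExE (0.163% and 0.363%). The maternal allele changed at 0 in epiblast and 1 in ExE (3.39% and 6.07%) and the paternal allele at 0 (3.29% and 6.69%).

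H3K27me3 had 1 informative peak in each tissue, at the left edge and outside the imprinted genes. In ExE (6599000 to 6604500) it held 12 and 26 paternal against 19 and 14 maternal reads in B6/CAST, 38 and 17 against 16 and 9 in CAST/B6, and 16 and 15 against 17 and 15 in matDKO/CAST. It was called in CAST/B6 alone (log2 1.11 ± 0.35, edgeR adjusted p = 0.012), where 21.8% of ExE peaks were called, and this was lost with either CAST/B6 library left out (adjusted p = 0.446 and 0.054). The epiblast peak was not called (12.9%). No other test called either peak. For B6/CAST 1.56% of all peaks were called in epiblast and 11% in ExE, for matDKO/CAST 1.97% and 2.1%, for the joint parent term 0.751% and 7.27%, for the strain term 7.19% and 23.3%, and for the change of the bias 0.179% and 0.742%. For the change of the maternal allele the shares were 3.19% and 11%, and for that of the paternal allele 2.62% and 7.45%.

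The 5 H3K4me3 peaks whose log2 ratios over the 6 libraries of a tissue were nearest to those of the Peg3 start, by root mean square difference, were in epiblast those at Peg13 (0.746), within Impact (0.981), at Gm43580 within Inpp5f (1.10), at Snurf (1.12) and at Kcnq1ot1 (1.55), where the median of 11891 candidates was 5.44. In ExE they were Kcnq1ot1 (1.25), Peg13 (1.27), Snurf (1.27), the peak within Impact (1.49) and Gm27741 within Plagl1 (1.57), of 15461 candidates with a median of 4.84. At Peg13 in ExE the ratios were 5.50 to 5.87 in wild type and -0.13 to -0.03 in matDKO/CAST.

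Peg3 is 1 of 20 genes listed as known for methylation laid down by the oocyte. Whether the peak taken for each gene is the methylated promoter was not tested. Inpp5f had a joint log2 ratio of 0.05 in epiblast and Plagl1 -0.20 in ExE, at other peaks than those within them named above. In epiblast 18 of the 20 genes lay at an informative H3K4me3 peak. The joint fit called 13 paternal and 1 maternal, the latter Grb10, where 0.197% of all informative peaks were called in either direction. The median log2 ratio was 2.02 against -0.0047 over all informative peaks. The bias changed in matDKO/CAST at 9 (0.674% of all peaks), of which 8 were lower and Grb10 was higher. The maternal allele rose at 13, where 0.762% of all peaks rose, and fell at Grb10 and Inpp5f, where 6.12% fell. At Inpp5f both alleles fell, with log2 changes of -1.38 (maternal) and -1.30 (paternal) in epiblast and -1.33 and -0.94 in ExE. Its change of bias was called in neither tissue. In ExE 17 were informative, 12 called paternal and 1 maternal (0.711% of all peaks), with a median of 1.11 against -0.02 over all peaks. The bias was lower in matDKO/CAST at 9 (0.892% of all peaks changed) and the maternal allele rose at 10 (1.09%) and fell at the same 2 (6.56%). A parental bias was called in matDKO/CAST at the peak listed for Impact alone, in both tissues (log2 -1.56 in epiblast and -0.75 in ExE). The peak within Impact named above is another one. In epiblast its log2 ratios were 3.55 to 7.42 in wild type and -0.25 to 0.21 in matDKO/CAST. In ExE they were 4.24 to 4.96 and -0.29 to -0.08. The epiblast joint ratio of the Peg3 start was the second highest of the list after that of Peg13 (7.22), and in ExE Peg13 (5.70) also stood above Peg3. Peg10 and Sgce share 1 peak and count as 2 genes.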

How the data were processed

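ULI native ChIP-seq libraries of E6.5 epiblast and ExE were analysed from the deposited tables, 36 ChIP libraries in 18 groups of 2 and 15 inputs, grouped by the labels. The authors trimmed reads (Trim Galore 0.4.4 per the processing notes), aligned them to N-masked GRCm38 with Bowtie2 2.3.2 and split them by allele with SNPsplit, and the allelic tables hold raw read counts per chromstaR peak. For matDKO/CAST the authors left out variants common to 129 and CAST and added reads assigned to 129 to the maternal set, so that step can add maternal reads alone. Over the autosomes the maternal share of H3K4me3 was 51.1 to 52.9% in matDKO/CAST and 50.5 to 51.6% in B6/CAST. The authors' window table holds RPKM of all reads. In the peak lists the authors' score column is 0 in every row, so these served for positions alone.

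Allele counts were tested with edgeR 4.0.16 (TMM, quasi-likelihood, two-sided), informative peaks having at least 20 reads in 1 wild-type allele column, and Benjamini-Hochberg adjustment ran over all informative autosomal peaks. The change in matDKO/CAST was the interaction of cross and parent against B6/CAST. Total signal was tested with limma 3.58.1 on log2(RPKM + 0.5) over 51229 GENCODE vM21 genes, 1000 bases either side of the start for H3K4me3 and H3K27me3 and the gene body for H3K36me3. The threshold was an adjusted p of 0.05. DESeq2 1.42.0 was an alternative. The fits were checked on simulated data, where the test of the change missed many known differences that the other tests found, large ones among them, so a change without a call may still exist. The members, lists and tests were chosen with earlier results of these data known, and stretches of windows and the limit of 1 RPKM in each group after the data were seen. The rule for named features took the peaks and genes of the domain and the 5 H3K4me3 peaks nearest in pattern. It also took a list of genes known for oocyte methylation, given by counts. Of that list Grb10, Inpp5f, Plagl1, Peg10 and Sgce were named after their values were seen, and Dnmt3b is named as a deleted gene. The remaining software was matplotlib 3.10.9, scipy 1.17.1, pandas 2.3.3, numpy 2.4.6, Python 3.11.15 and R 4.3.3. The inputs were not subtracted.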

Additional observations from a re-analysis of the deposited data

Results flagged for a closer look

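At 3 H3K4me3 peaks of the domain the parental bias differed between the wild-type crosses, by the strain term of the joint edgeR fit (log2 of CAST over B6). These were 1 of 5 informative peaks in epiblast and 2 of 9 in ExE, where 6.09% and 19% of all informative peaks were called. The strain term was -1.37 at the ExE start of Peg3 (adjusted p = 2.55e-05), 0.80 at the ExE start of Zim1 (adjusted p = 8.22e-05) and -1.72 at the epiblast peak at 6750000 to 6754000 (adjusted p = 0.033), the last of which was lost in DESeq2.

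H3K27me3 over the stretch of Zim1 at 6675001 to 6679000, which no allelic peak covers, averaged 1.74 RPKM in the 2 matDKO/CAST libraries of epiblast and 1.76 in those of ExE, above each of the 4 wild-type libraries of the tissue. Among autosomal windows with at least 1 RPKM in both groups, which the wild-type mean over this stretch was below, 5.52% and 6.11% were above in this way. The stretch was picked after its profile was seen.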

How the results depend on the processing

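With other settings most values kept their direction and their side of the threshold. Parental bias in single wild-type crosses was called 16 times, and 8 times with DESeq2. In matDKO/CAST 0 peaks were called, against 1 without a filter and 2 with the library as a replicate block, and 0 to 1 when 1 library was left out. Between tissues 3 genes differed in total signal, against 6 with a mean of at least 0.5 RPKM, 7 with edgeR on recovered reads and 0 with the replicate block, and 0 to 5 with 1 library left out. In matDKO/CAST 0 genes differed, against 4 with that filter and 4 with edgeR, the Zim3 and Zfp264 promoter in both tissues among them. The shares of all peaks or genes called with these alternatives are not given here. Their counts therefore cannot be set against a background.

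The paternal change at the ExE start of Peg3, near 0, turned to 0.019 with library totals and 0.011 with DESeq2, and ran from -0.068 to 0.077 with 1 library left out. For Peg3 to Usp29 H3K36me3 in ExE it turned to 0.063 and 0.0017, and ran from -0.079 to 0.066. Leaving out 1 library also turned the epiblast Zim1 start in B6/CAST (-0.57 to 0.016), its strain term (-0.025 to 0.39) and its maternal change (-0.16 to 0.23), the epiblast Peg3 start's strain term (-1.29 to 0.32) and paternal change (-0.069 to 0.15), and the paternal change at the ExE Zim1 start (-0.043 to 0.28) and Zim1 body (-0.23 to 1.51).

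Same-numbered libraries deviated together, with a correlation over 0.1, in 7 of 22 H3K4me3, 2 of 25 H3K27me3 and 2 of 22 H3K36me3 pairs, so the numbers were not taken to pair libraries. The per-allele change could not be fitted with the library block. Over gene bodies 0 genes of the domain were called for H3K27me3 in matDKO/CAST, and 1 (Gm44862, adjusted p near the threshold) without matDKO/CAST ExE replicate 2. With 2 pools per group, and few reads at Zim1, small changes were not detectable.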
